A study of Mus musculus with 12 samples.

Results

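Cysteine is among the rarest residues of mouse heavy chain CDR3s, the loop that forms between the end of the VH segment and the start of the J framework and that contributes most to antigen contact. The CDR3s described here are those that held 1 or more cysteines in J558 VH to Cμ transcripts of spleen B cells. A CDR3 was read as the residues between the conserved cysteine that ends the VH framework and the tryptophan that opens the J framework motif, in each distinct translation without a stop codon, and CDR3s longer than 22 residues were left out. Of 546543 such translations in 12 libraries, 9652 (1.77%) held cysteine inside the CDR3: 9397 held 1 cysteine and 255 held 2 or more, of which 254 held exactly 2. Counted as unique CDR3s over all libraries, they were 5722 of 216278 (2.65%), and 97 of these held 2 or more cysteines.

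The anchoring cysteine of VH lies outside the CDR3 and pairs with another cysteine of the V domain, so a lone cysteine in the loop has no partner from that fold. A pair of cysteines in 1 loop can form a disulfide bond that constrains it. In their commonest reading frames mouse D segments encode mainly tyrosine, glycine, serine and aspartate, and the 4 mouse J segments add germline ends rich in tyrosine, phenylalanine and, in J4, alanine and methionine, so a cysteine can come from the added or trimmed bases at the joins, from rarer reading frames, from base changes after joining, or from errors in the copying and reading of the RNA. Which of these routes gave the cysteines counted here was not tested.

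The mice were 14 weeks old females of the MRL/lpr strain, which is homozygous for a defective Fas allele and develops a lupus-like disease; all 12 carried this background. Of them, 6 had received a control splice-modulating oligomer (Control SMO) and 6 an oligomer that blocks splicing to the long form of the prolactin receptor (LFPRLR SMO). The amplicons cover a single VH family joined to Cμ, so they report IgM transcripts of that family, and more RNA per cell cannot be told apart from more cells. Each library held 130635 to 227202 reads, except LFPRLR SMO replicate 6 with 627 reads and 493 translations with a CDR3. Its values are given with that depth, and it had only 14 translations with 3 or more reads, too few for the comparison by read class.

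Some libraries shared their leading sequences. When the 50 most-read V-D-J stretches of each library were compared, 32 were common to replicates 4 and 8 of Control SMO, 43 to its replicates 5 and 7, and 34 to replicates 4 and 5 of LFPRLR SMO. The other 63 pairs of libraries had 0 to 12 in common. The value of 12 was between LFPRLR SMO replicate 6 and Control SMO replicate 4, across the groups. Replicate 6 also had 8 in common with Control SMO replicate 8, 7 with each of Control SMO replicates 5 and 7, and 0 with replicates 3 and 9. Within LFPRLR SMO, replicate 6 had 6 in common with replicate 8, 4 with each of replicates 4 and 5, 3 with replicate 7 and 0 with replicate 3. Of the 458 unique CDR3s of replicate 6, 8 held cysteine, and 7 of these 8 were found in other libraries. Control SMO libraries held 6 of the 8, and other LFPRLR SMO libraries also held 6. Among the 8, 4 were ARDGNYCAMDY, ARDYDNYDYCAMDY, ARESNYCLAY and ATNCYYAMDY, each among the most-read cysteine CDR3s of other libraries. Of its CDR3s without cysteine 87.6% were found in other libraries, 70.2% in Control SMO libraries and 64% in other LFPRLR SMO libraries. It was kept as labelled, and results that change without it are given both ways. In addition, 6 libraries (Control SMO replicates 4, 7 and 9 and LFPRLR SMO replicates 3, 4 and 7) carried a second Cμ end in 31.9% to 39.6% of their distinct sequences, against 0.113% to 2.18% in the other 6, and each of these sets held 3 libraries of each group. P-values below treat the libraries as separate samples, and values with each of the 3 pairs averaged, or within each set, stand beside a result where they changed its sign or its side of the threshold.

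The sequences of the most-read cysteine CDR3s show where the cysteine codons lay. The first 6 hold 2 cysteines and the next 7 hold 1. They are the 3 most-read of each kind in each group and the 3 found in the most libraries, each given by its most-read nucleotide sequence, 5′ to 3′, from the codon after the VH cysteine to the codon before the J tryptophan. Capitals mark the cysteine codons, and the name is the translation, except for the 2 longest CDR3s, which are named by their length.
ARCDYGCFAY: gcaagaTGCgactacggtTGCtttgcttac
ARHVCNPCAMDY: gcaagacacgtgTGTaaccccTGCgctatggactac
ARSLCYDGYCAMDY: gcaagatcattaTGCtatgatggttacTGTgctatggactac
TIGECCRYDAMDY: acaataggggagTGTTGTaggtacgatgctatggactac
CDR3 of 15 residues: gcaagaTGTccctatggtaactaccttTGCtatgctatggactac
CDR3 of 16 residues: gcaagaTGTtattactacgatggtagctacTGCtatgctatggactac
ARCRGWLPSYAMDY: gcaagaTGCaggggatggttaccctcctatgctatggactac
ARDYDNYDYCAMDY: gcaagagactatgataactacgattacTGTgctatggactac
ARDGNYCAMDY: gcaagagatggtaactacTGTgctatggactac
ARESNYCLAY: gcaagagaaagtaactacTGTttggcttac
ARCLPYAMDY: gcaagaTGTctaccgtatgctatggactac
ARCSDYGHYYAMDY: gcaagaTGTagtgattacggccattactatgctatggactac
ATNCYYAMDY: gcaactaacTGTtactatgctatggactac
In 6 of the 13 the first cysteine is the third residue, directly after the alanine and arginine that end the VH segment. In others, such as ARDGNYCAMDY, the lone cysteine stands directly before AMDY, where J4 CDR3s most often hold tyrosine (59.4%). Of these 13 CDR3s, 11 were assigned to J4 and 2, ARCDYGCFAY and ARESNYCLAY, to J3.

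The share of cysteine CDR3s did not differ between the groups beyond the spread between mice. It was 1.58% to 2.07% of distinct translations in the 6 Control SMO libraries (median 1.80%) and 1.44% to 2.06% in the 6 LFPRLR SMO libraries (median 1.62%), and the groups overlapped over most of their range. The difference in medians was -0.176 percentage points (LFPRLR SMO minus Control SMO; exact two-sided Mann-Whitney p = 0.310, adjusted p = 0.788 over 4 shares). The smallest p this design allows is 0.00216. The highest and lowest libraries were Control SMO replicate 3 (2.07%, 95% Wilson interval 1.97% to 2.18%) and LFPRLR SMO replicate 4 (1.44%, 1.34% to 1.56%). LFPRLR SMO replicate 6 had 8 cysteine CDR3s, a share of 1.62% with an interval from 0.824% to 3.17%. Within the set of libraries with the second Cμ end the medians were 1.76% and 1.47% (exact p = 0.7), and in the other set 1.91% and 1.63% (exact p = 1), where 3 against 3 libraries cannot give a p under 0.1.

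**Figure D1:**
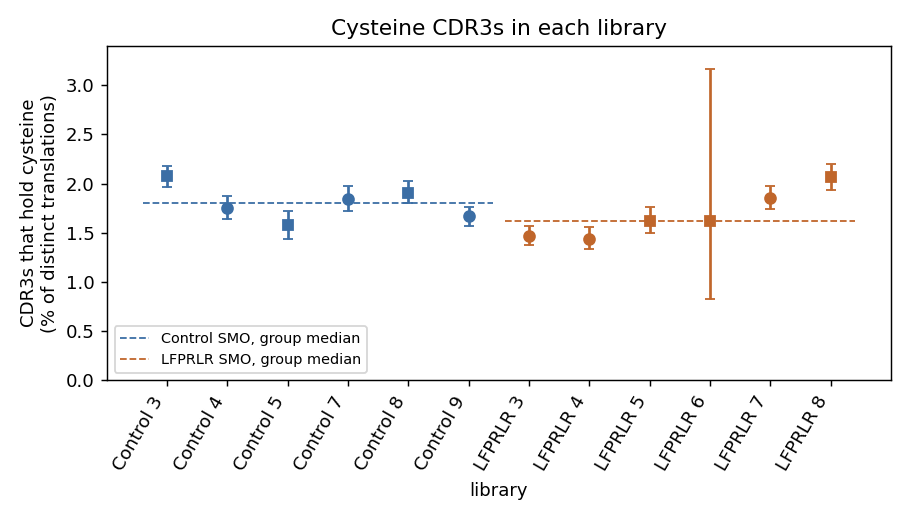
Share of distinct translations whose CDR3 held cysteine (%, vertical axis) in each of the 12 libraries (horizontal axis), with 95% Wilson intervals as bars and the group medians as dashed lines (1.80% and 1.62%); circles are libraries with the second Cμ end and squares the others. The groups overlap, and the interval of LFPRLR SMO replicate 6 (0.824% to 3.17%) is the widest because it rests on 493 translations.

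CDR3s with 2 or more cysteines were a small and uneven class. Their share ran from 0.0162% to 0.0857% in the Control SMO libraries (median 0.0368%) and from 0 to 0.119% in the LFPRLR SMO libraries (median 0.0350%; exact Mann-Whitney p = 1). The 0 was LFPRLR SMO replicate 6, where none among 493 translations allows a share of up to 0.609%. The difference in medians, -0.00183 points, turned to 0.00464 without that library (exact p = 0.662) and was 0.00550 within the set with the second Cμ end (exact p = 1). The highest values in each group, in Control SMO replicate 9 and LFPRLR SMO replicate 5, came with 1 CDR3 each. ARCDYGCFAY gave 331 of the 347 reads with 2 or more cysteines in Control SMO replicate 9, and TIGECCRYDAMDY gave 248 of the 279 in LFPRLR SMO replicate 5. By unique CDR3s, which count each of these once, Control SMO replicate 9 held 11 and LFPRLR SMO replicate 5 held 10, and Control SMO replicate 3 held the most with 23.

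Cysteine CDR3s were commoner among translations read once than among those read 3 or more times, in every library with enough translations for the comparison. At 1 read they were 1.77% to 2.10% of translations in Control SMO (median 1.92%) and 1.49% to 2.16% in LFPRLR SMO (median 1.78%; exact Mann-Whitney p = 0.394, adjusted p = 0.788). At 3 or more reads they were 1.19% to 1.95% in Control SMO (median 1.46%, 6 libraries) and 1.07% to 1.67% in LFPRLR SMO (median 1.31%, 5 libraries; exact p = 0.662, adjusted p = 0.883). With the 3 pairs of libraries averaged, the small difference between groups at 3 or more reads turned to 0.0493 percentage points, still within the spread (exact p = 0.686).

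Within libraries the share at 1 read exceeded that at 3 or more reads by 0.419 ± 0.121 percentage points (mean ± SD, n = 11), and it was higher at 1 read in 11 of 11 libraries (exact two-sided sign-flip test, p = 0.000977, the smallest it can give with 11 libraries). The smallest excess was 0.149 points in Control SMO replicate 3, and the largest was 0.577 points in Control SMO replicate 5. The excess did not differ detectably between the groups (exact Mann-Whitney p = 0.792). Within the sets it was 0.411 points over 6 libraries with the second Cμ end (exact p = 0.0313) and 0.427 points over the 5 others (exact p = 0.0625), each the smallest p its number of libraries allows. It was 0.407 points with the pairs of libraries averaged (exact p = 0.00781), 0.363 points among CDR3s of 9 to 13 residues (exact p = 0.000977), and 0.914 points when each unique CDR3 of a library was counted once and classed by its summed reads (exact p = 0.000977). Of all cysteine CDR3 translations 68.2% were read once, against 64.4% of all translations.

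**Figure D2:**
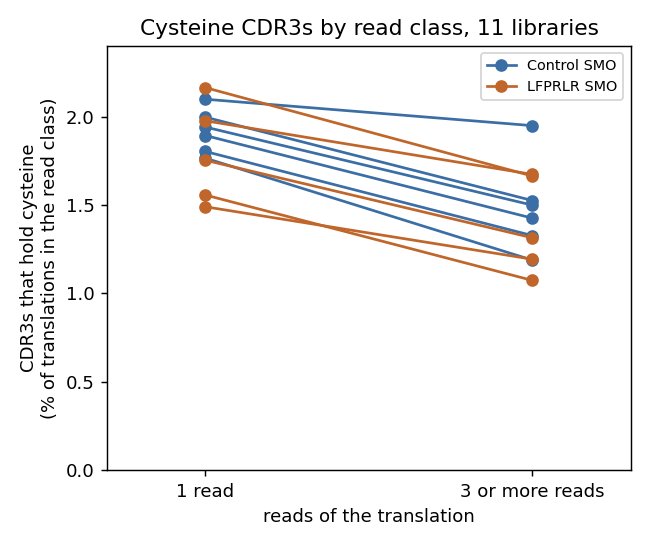
Share of translations whose CDR3 held cysteine (%, vertical axis) among translations with 1 read and with 3 or more reads (horizontal axis), 1 line per library, for the 6 Control SMO and 5 LFPRLR SMO libraries with enough translations. All 11 lines fall from 1 read to 3 or more reads, by 0.149 to 0.577 percentage points.

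The same comparison over single residues placed cysteine first among the 20 amino acids by ratio. Cysteine was 0.171% of CDR3 residues at 1 read and 0.137% at 3 or more reads, a ratio of 1.25 (adjusted p = 0.00781, exact sign-flip test adjusted over 20 residues), and the next ratio was 1.04, for glutamate. Glutamate, proline, serine and tyrosine were also higher at 1 read, and phenylalanine, tryptophan, threonine and lysine were lower. In all, 45% of the 20 residues passed an adjusted p of 0.05 in either direction and 25% passed as higher at 1 read, so a shift between the read classes was not particular to cysteine, while its relative size was the largest of the 20. The lowest ratios were those of lysine (0.916) and threonine (0.926).

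For CDR3s with 2 or more cysteines no such excess was detectable. Their share at 1 read minus that at 3 or more reads was -0.00666 ± 0.0432 points (n = 11), positive in 6 of 11 libraries (exact sign-flip p = 0.725). That mean is pulled down by Control SMO replicate 9, at -0.118 points, where ARCDYGCFAY appeared in many well-read translations, and without that library it turned to 0.00447. Counted as unique CDR3s it was 0.0151 points (exact p = 0.0596). Of the 97 unique CDR3s with 2 or more cysteines 65 had a single read in the whole series, 16 had 3 or more reads and 8 had 10 or more. The 2 most-read of them held 71.7% of the 950 reads of the class.

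Cysteines were not spread evenly along the loop. Among CDR3s of at least 8 residues in the 11 deep libraries, 0.866% ± 0.128 (SD, n = 11) had cysteine as the third residue, the first position after the usual alanine and arginine of VH, where glycine (19.3%), serine (15.8%) and arginine (11.2%) were the commonest residues. Residue 4 followed with 0.148% ± 0.0261. Near the J end, with positions counted back from the last residue as -1, cysteine stood at -4 in 0.236% ± 0.0746, at -5 in 0.199% ± 0.0584 and last in 0.105% ± 0.0262. It was scarcest at the first residue (0.0114%) and at -2 (0.0108%), which are nearly always alanine and most often aspartate. Of the CDR3s with 1 cysteine, 42.9% ± 6.76 per library (25% to 50.9%, the lowest in LFPRLR SMO replicate 6 with its 8 cysteine CDR3s) carried it as the third residue, and the median was 43.2% for Control SMO against 44.5% for LFPRLR SMO.

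**Figure D3:**
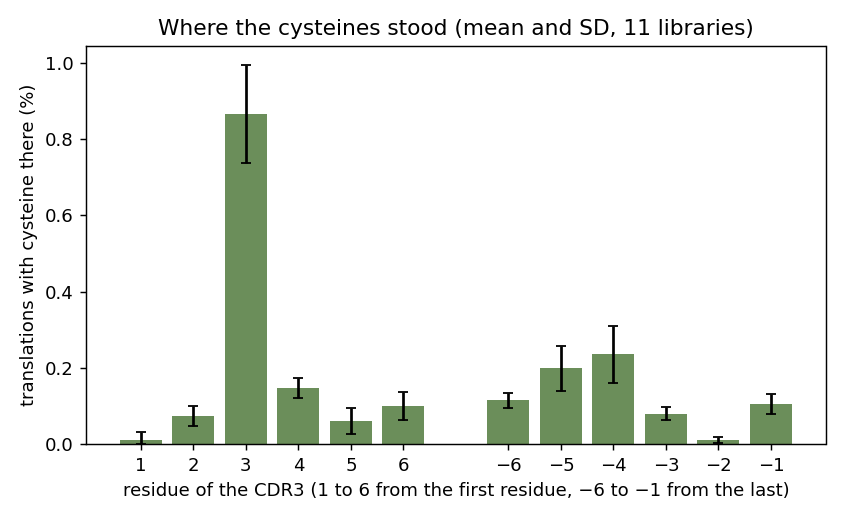
Share of translations with cysteine at each residue (%, vertical axis; mean of 11 libraries, error bars show SD and stop at 0) for the first 6 and last 6 residues of CDR3s of 8 or more residues (horizontal axis; negative numbers count from the end). The third residue (0.866%) stands above all other residues shown, and a lower rise lies at -4 and -5 (0.236% and 0.199%).

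The excess at 1 read was also taken by zone of the loop, a split chosen after the shares had been seen. In the middle of the loop beyond the third residue, cysteine was 1.27 per 1000 residues at 1 read and 0.811 at 3 or more reads, a ratio of 1.57, higher at 1 read in 11 of 11 libraries (exact sign-flip, adjusted p = 0.00391 over 4 zones). At the third residue it was 8.95 and 7.92 per 1000, a ratio of 1.13, higher at 1 read in 9 of 11 libraries (exact, adjusted p = 0.00911). In the last 4 residues it was 1.13 and 0.984 per 1000, a ratio of 1.15, higher in 10 of 11 (exact, adjusted p = 0.00911). In the first 2 residues the values were 0.405 and 0.382 per 1000, higher in 4 of 11 (exact, adjusted p = 0.598). The order of the zones depended on the measure. By ratio the middle beyond the third residue was highest. By difference the third residue was highest, at 1.04 per 1000 against 0.464 in the middle beyond it and 0.146 in the last 4 residues. The difference between the zones was not tested.

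Cysteine CDR3s were longer than the rest. Their mean length ran from 10.9 to 12.3 residues in the libraries, and the difference from the other CDR3s of the same library was 0.722 ± 0.270 residues (SD, n = 12), positive in 11 of 12 (exact sign-flip p = 0.000977). The exception was LFPRLR SMO replicate 6, at -0.00335 residues with 8 cysteine CDR3s, and without it the mean was 0.788 (exact p = 0.000977). Within the sets of libraries it was 0.790 residues with the second Cμ end (exact p = 0.0313) and 0.655 without (exact p = 0.0625, short of the threshold; the smallest p over 6 libraries is 0.0313). Counting each unique CDR3 once gave a smaller difference, 0.415 residues (exact p = 0.000977), and over the whole series unique CDR3s averaged 11.8 residues without cysteine, 12.01 with 1 and 12.8 with 2 or more. The differences did not separate the groups (exact Mann-Whitney p = 0.818).

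Longer loops offer more places for a cysteine, so the rate was also taken per residue. In the 11 deep libraries the share of CDR3s with cysteine was 0.821% ± 0.157 at 1 to 8 residues, 1.53% ± 0.434 at 9 to 10, 1.93% ± 0.233 at 11 to 12, 2.35% ± 0.313 at 13 to 14 and 2.17% ± 0.328 at 15 to 22. Per 1000 residues these classes held 1.21, 1.65, 1.70, 1.82 and 1.41 cysteines. The shortest and longest classes had the lowest means. The SD between libraries was 0.194 to 0.478 by class. These SDs are between libraries, and all classes came from the same libraries, so they do not measure the spread of differences between classes. Differences between the classes were not tested within libraries. Just inside the length limit, at 21 to 22 residues, 8 of 266 translations (3.01%) held cysteine. Just outside it, 37 of 67 (55.2%) did, and 32 of those 37 held a second copy of the VH end motif, a cysteine after a pair of tyrosines or phenylalanines, inside the called loop.

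J4 was over-represented and J3 under-represented among cysteine CDR3s. J4 made up 34.2% ± 3.72 of cysteine CDR3s and 29.5% ± 2.39 of the rest, a difference of 4.64 ± 2.51 points that was positive in 12 of 12 libraries (exact sign-flip, adjusted p = 0.000977 over the 4 J segments). J3 made up 23.6% ± 3.22 and 28.3% ± 1.51, a difference of -4.79 ± 2.70 points with 0 of 12 libraries above 0 (adjusted p = 0.000977, exact). J2 made up 33.4% and 32.4%, higher in 8 of 12 (exact, adjusted p = 0.186), and J1 8.58% and 9.38%, higher in 5 of 12 (exact, adjusted p = 0.701). The J1 difference of -0.796 points turned to 0.350 without LFPRLR SMO replicate 6 and was 0.587 within the set with the second Cμ end (exact p = 0.625). Counting unique CDR3s brought the J4 difference down to 2.69 points (exact, adjusted p = 0.00586) and the J2 difference up to 2.20 points, past the threshold (exact, adjusted p = 0.00586). Mean length differed between the J segments, at 10.3 residues for J2, 10.7 for J3, 12.01 for J1 and almost the same for J4 as for J1. The part of length in the J shares was not tested.

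**Figure D4:**
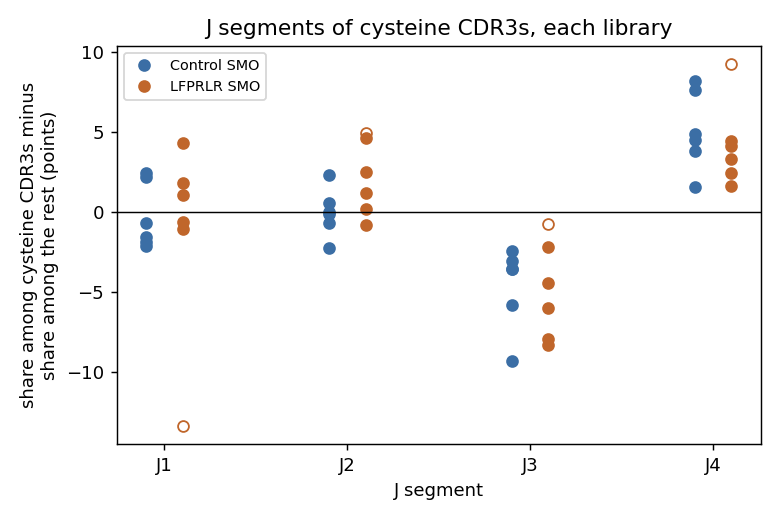
Share of each J segment among cysteine CDR3s minus its share among the other CDR3s (percentage points, vertical axis) for J1 to J4 (horizontal axis), 1 point per library; the open circle is LFPRLR SMO replicate 6, with 8 cysteine CDR3s. All 12 points of J4 lie above 0 and all 12 of J3 below it.

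The positions of the cysteine were also taken by J segment, and differences between the J segments were not tested. Among unique CDR3s with 1 cysteine and J4 (1993), 47.9% had it at the third residue and 14.1% at -5, where J4 CDR3s most often hold tyrosine (59.4%). That is the arrangement of ARDYDNYDYCAMDY and ARDGNYCAMDY. With J2 (1968 CDR3s) 37.8% were at the third residue and 17.8% at -4, where tyrosine was commonest (39.6%), and with J3 (1470) 36.1% and 15.4% at the same positions, with tryptophan commonest at -4 (35.8%). With J1 (563) 48.1% were at the third residue and 10.8% at -6. A cysteine as the last residue, otherwise almost always tyrosine or, in J1, valine, was found in 8.69% of J2, 8.10% of J3, 5.97% of J4 and 0.355% of J1 CDR3s.

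In CDR3s with 2 or more cysteines the spacing had 2 modes. Over the 98 pairs of neighbouring cysteines in the 97 unique CDR3s, 25 were adjacent, as in TIGECCRYDAMDY. Only 4 had 1 residue between them and 6 had 2, whereas 10 had 3, 15 had 4, 15 had 5, 14 had 6 and 5 had 7. Thus 59 (60.2%) had 3 to 7 residues between them, and 4 had more, up to 10. Counted by translations the modes were adjacent (88) and 3 residues apart (78), of which TIGECCRYDAMDY and ARCDYGCFAY alone gave 44 and 69. Among the 16 unique CDR3s with 3 or more reads, 9 of 16 pairs had 3 to 7 residues between them and 6 were adjacent.

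**Figure D5:**
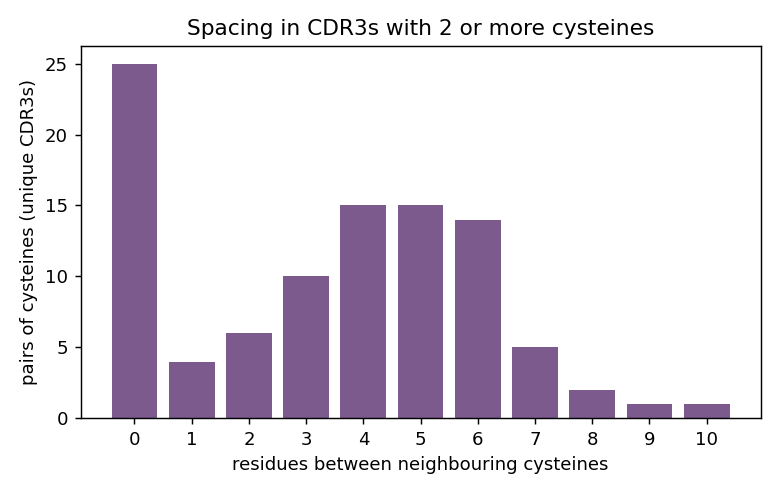
Number of pairs of neighbouring cysteines (vertical axis, each unique CDR3 counted once over all 12 libraries) by the residues between them (horizontal axis). Adjacent cysteines (25) and pairs with 4 to 6 residues between them (15, 15 and 14) form the peaks, with 4 and 6 pairs at 1 and 2 residues.

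Many of the paired CDR3s, but not all, had a similar layout. In 60 of the 97 (61.9%) the first cysteine was the third residue, and 56 (57.7%) opened with alanine, arginine and cysteine, as did 2028 of the 5625 unique CDR3s with 1 cysteine (36.1%). Paired CDR3s have more cysteines to stand there, and the difference was not tested. In 24 (24.7%) that opening went with a cysteine in the usual place of the J4, J2 or J3 end (endings CAMDY, CYAMDY, CFDY or CFAY), the form of ARCDYGCFAY and of the CDR3s of 15 and 16 residues. Residues between the cysteines were tyrosine in 36.3%, glycine in 16.5% and aspartate in 15.8%, while in the middle of all unique CDR3s tyrosine made up 24.7%, glycine 17.2% and aspartate 10.5%. The unique paired CDR3s numbered 53 in Control SMO and 47 in LFPRLR SMO. The 3 in both were 3.09% of the 97, against 2.76% of all unique cysteine CDR3s and 7.37% of those without cysteine. A CDR3 with a single read in the whole series, as 65 of the 97 had, cannot be in both groups.

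Cysteine CDR3s read once more often had a well-read near neighbour than other CDR3s read once. Between 0 and 40.3% of them in a library differed by 1 residue from a CDR3 of the same length with 3 or more reads in the same library. The 0 was LFPRLR SMO replicate 6, with 8 such CDR3s and 14 translations with 3 or more reads to supply neighbours. The next lowest was 19.7%, in LFPRLR SMO replicate 4. The difference from the other one-read CDR3s was 4.87 ± 5.92 points (n = 12), positive in 9 of 12 libraries (exact sign-flip p = 0.0156). Without LFPRLR SMO replicate 6 it was 5.36 points (exact sign-flip p = 0.0146). The largest differences were 15.6 points in Control SMO replicate 5 and 12.4 in Control SMO replicate 7, a pair that shared sequences, and the lowest was -4.30 in LFPRLR SMO replicate 4. With pairs averaged it was 4.35 points (exact p = 0.0156). Within the sets of libraries it was 3.36 points (exact p = 0.188) with the second Cμ end and 6.38 points (exact p = 0.125) without, each over 6 libraries and past no threshold.

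The residue that the neighbour held in place of the cysteine was most often tyrosine. Of 4008 CDR3s with 1 cysteine and 1 read in their library, 958 (23.9%) had a neighbour with 3 or more reads that differed at the cysteine itself, and that neighbour held tyrosine in 464 (48.4%), glycine in 140, tryptophan in 101, serine in 49, arginine in 48 and phenylalanine in 38. These 6 residues are those whose codons lie 1 base from a cysteine codon, and they made up 87.7% of the 958. Some of the 6 are also common residues, so the rate was taken per position. Per 10000 positions of CDR3s with 3 or more reads, tryptophan had 46.7 such one-read cysteine neighbours, tyrosine 25.4 and glycine 16.7. Serine had 9.72, phenylalanine 8.83 and arginine 5.75, within the 0.814 (alanine) to 11.8 (histidine) of the residues outside the 6. Among CDR3s with 1 cysteine and 3 or more reads, 154 of 1283 had a neighbour with more reads than their own. That requirement rises with the reads of the CDR3, whereas a neighbour with 3 reads was enough for those read once. The share is therefore not comparable with that of the CDR3s read once. Among the CDR3s with 1 cysteine printed above, 4 had a neighbour at the cysteine when neighbours with any number of reads were counted. In Control SMO replicate 8 ARDGNYCAMDY had 204 reads and its glycine neighbour 38. ARDYDNYDYCAMDY had 143 reads and its tyrosine neighbour 1 in Control SMO replicate 7, and ATNCYYAMDY had 101 reads and its tyrosine neighbour 1 in Control SMO replicate 5. ARCLPYAMDY was the reverse in Control SMO replicate 8, with 1 read against 8 of its arginine neighbour, while its 152 reads in LFPRLR SMO replicate 8 were the bulk of its total.

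At the level of bases, 442 differences of a single base were found between a sequence read once, with a cysteine codon at that base, and a sequence with 3 or more reads in the same library. The replaced codon was tyrosine in 286 (64.7%), tryptophan in 68 (15.4%) and glycine in 55 (12.4%), and the single change from TAC to TGC made up 231. A-to-G was 64.7% and G-to-T 25.3% of these changes, while they were 17.7% and 14.5% of all 8580 single-base changes of sequences read once. Only some changes can yield a cysteine codon, so the first pair of values reflects which codons were available as well as which bases changed. Over the unique nucleotide sequences of each library the cysteine codons were TGC in 53.2% and TGT in 46.8%.

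Cysteine CDR3s were found in fewer libraries than the rest. Of the unique cysteine CDR3s 10.1% occurred in 2 or more libraries and 2.76% in both groups, against 18.5% and 7.37% of the other CDR3s. None occurred in more than 7 libraries, while others reached all 12. Without LFPRLR SMO replicate 6 the shares were 10.1% and 2.74%, against 18.5% and 7.32%, and the most libraries were 6 and 11. Control SMO libraries held 3440 of them and LFPRLR SMO libraries 2440, and the 158 common to both are 4.59% of the first list and 6.48% of the other. These shares are a description and were not tested.

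The most-read CDR3s with 1 cysteine had most of their reads in 1 library or in a pair that shared sequences. ARCRGWLPSYAMDY had 276 of its 368 reads in Control SMO replicate 8 and 88 in replicate 4. ARDYDNYDYCAMDY had 138 and 143 of its 299 reads in Control SMO replicates 5 and 7, and ARESNYCLAY had 304 of 306 in LFPRLR SMO replicate 8.

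Among the paired forms, ARCDYGCFAY had 331 reads in Control SMO replicate 9 and 38 in replicate 4, which are not one of the pairs above, and 1 to 4 in 4 other libraries. These 6 libraries are the same 6 that carried the second Cμ end, and the nucleotide sequence printed above was found in all 6. TIGECCRYDAMDY had 248 in LFPRLR SMO replicate 5 and 48 in replicate 4. ARDYDNYDYCAMDY and ATNCYYAMDY reached 7 libraries each, the most of any cysteine CDR3, with LFPRLR SMO replicate 6 as 1 of the 7 for both, and the very nucleotide sequence printed above was found in 7 and 6 of them. By reads, the leading cysteine CDR3 of a library ranked between 31 and 277 among all its CDR3s. The best rank, 31 of 33912 unique CDR3s, was that of ARCDYGCFAY in Control SMO replicate 9, with 331 reads where the commonest CDR3 had 3930. Rank 277, of 41472, was in Control SMO replicate 3.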

How the data were processed

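Spleen B cell RNA of 12 mice was amplified with J558 VH and Cμ primers and sequenced as paired reads, per the labels. For each library the authors deposited the distinct nucleotide sequences and, separately, their distinct translations, each with its read count; these counts are whole numbers with no normalization and no molecular identifiers, and tools for merging, trimming and collapsing reads are not given in the sources used here. Because identical reads can be copies of 1 molecule, intervals (Wilson, 95%) and limits from a count of 0 (3 counts) cover counting error only. Replicate numbers came from the sample titles.

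The VH cysteine was the end of a tyrosine or phenylalanine pair plus cysteine at residues 16 to 30, and the J tryptophan that of the last WG[QAT]GT motif. Translations with a stop codon or an undetermined residue were left out. Translations, not reads, were counted unless reads are named. Read classes were 1 and 3 or more reads, the latter used where a library had at least 50 such translations. J was taken from the pair of residues that follows the WG[QAT]GT motif, and no residue of the CDR3 was used. In LFPRLR SMO replicate 5 the table of translations sums to more reads than that of nucleotides. Python 3.11.15, NumPy 2.4.6 and SciPy 1.17.1 were used, with figures in Matplotlib 3.10.9. CDR3 location was tested on 5000 simulated sequences.

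Groups were compared by exact two-sided Mann-Whitney tests over 924 arrangements of 6 against 6 libraries, and classes within libraries by exact sign-flip tests, with Benjamini-Hochberg adjustment within each family and a threshold of 0.05. CDR3s named are the 3 most-read with 1 and with 2 or more cysteines in each group and the 3 in the most libraries; zones by read class, cysteine positions by J, and the openings and endings of paired CDR3s were chosen after values were seen. The members and lists were chosen with earlier results of these data known. Alternatives left out single libraries, averaged libraries that shared sequences, counted unique CDR3s, weighted by reads, changed read classes, drew equal depth, or used the replicate number as a block.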

Additional observations from a re-analysis of the deposited data

Results flagged for a closer look

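Of 26 groups of 5 or 6 libraries examined, 4 values stood far from the others of their group, by a gap to the nearest value that was large against the range of the group (Dixon's 95% critical value). That level marks about 1 in 20 groups by chance. In Control SMO replicate 3 the share of cysteine CDR3s at 1 read exceeded that at 3 or more reads by only 0.149 percentage points, the smallest of the Control SMO libraries; this was also the library with the highest cysteine share (2.07%). In Control SMO replicate 9 the share with 2 or more cysteines at 1 read minus that at 3 or more reads was -0.118 points, the lowest of its group, and ARCDYGCFAY held 331 of the 347 reads of that class there. In LFPRLR SMO replicate 6 the share of J1 among cysteine CDR3s minus that among the rest was -13.4 points and that of J4 was 9.25 points, both far from the other LFPRLR SMO libraries, and both rest on 8 cysteine CDR3s.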

How the results depend on the processing

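The excess of cysteine CDR3s at 1 read, their greater length, the J4 and J3 differences and the residue comparison kept their direction and side of the threshold under every alternative run on both sets of libraries together. Within the sets of 5 or 6 libraries, where the residue comparison was not run, these kept their direction, but in the set without the second Cμ end the excess at 1 read and the length difference had exact p = 0.0625, and the neighbour difference had exact p = 0.188 and 0.125 in the 2 sets, short of the threshold. Leaving out 1 library at a time gave 0.403 to 0.445 points for the excess at 1 read, 0.689 to 0.788 residues for length, 3.89 to 5.70 points for the neighbours of one-read CDR3s, 4.22 to 4.92 points for J4 and -5.16 to -4.38 points for J3. None of the differences between groups passed the threshold under any alternative, and several small ones changed sign. The share with 2 or more cysteines was -0.00830 to 0.00464 points with single libraries left out, 0.00447 by means, 0.00458 weighted by reads, 0.0107 by unique CDR3s and 0.00167 at 2 or more reads. The share at 3 or more reads was -0.208 to 0.0268 points with single libraries left out and 0.0493 with pairs averaged. The cysteine share was -0.219 to -0.133 points with single libraries left out. For CDR3s with 2 or more cysteines, 1 read minus 3 or more reads was -0.0109 to 0.00447 points with single libraries left out and 0.0151 by unique CDR3s (chosen after seeing the data, as was the range of 9 to 13 residues). J1 was -1.26 to 0.350 points with single libraries left out, positive without LFPRLR SMO replicate 6, and J2 was 2.20 points by unique CDR3s, past the threshold. Replicate numbers did not pair the samples (correlations of same-numbered deviations -0.581 to 0.387 over 5 numbers). With the number as a replicate block the difference was 0.0117 points for the cysteine share, 0.0253 for 2 or more cysteines and 0.126 at 3 or more reads, all of opposite sign to the unpaired values and none past the threshold. Leaving out CDR3s with an undetermined residue was not run as an alternative, since translations that held one were left out from the start. The paired class rests on 7 to 58 translations in each deep library.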
